A study of Mus musculus with 27 samples.

Results

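The genes described here encode subunits of the mitochondrial respiratory chain and of the ATP synthase. They were taken by symbol, as names in the deposited RNA tables that start with Nduf, a letter of the subunit classes A, B, C, S or V and a digit, with Cox and a digit from 4 to 8, with Uqcr or with Atp5, plus Sdha to Sdhd. Assembly factors with other names, such as Cox20, and a few subunits thus lay outside the rule, which 84 of 24892 gene symbols met. By symbol, 37 were counted under complex I, 4 under complex II, 8 under complex III, 18 under complex IV and 17 under complex V. The start of the symbol alone set the complex, not where the protein acts. Ndufa4 and Ndufa4l2, described with the complex IV isoforms below, are thus counted under complex I, and Atp5sl under complex V. RNA was measured in NMuMG cells, a cell line derived from normal mammary epithelium of the mouse, which were untreated or treated with TGF-β at 1 to 5 ng/ml for 8 or 24 h to drive epithelial-to-mesenchymal transition (EMT). There were 3 kinds of cells: parental cells, control cells that carried an irrelevant shRNA (shCT) and lamin B1 knockdown (KD) cells that carried an shRNA against lamin B1 (shLB). Each of the 9 groups had 2 libraries, 18 in all, and control and KD cells shared the lentiviral infection that parental cells did not have. Lamin B1 ChIP-seq of a euchromatin-enriched fraction and ATAC-seq were done in parental cells only, with 1 library per assay and time point, so a peak has no error between replicates.

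As background, complex I takes electrons from NADH and complex II from succinate, complex III passes them to cytochrome c, and complex IV hands them to oxygen. Complexes I, III and IV pump protons across the inner mitochondrial membrane, and complex V uses the gradient to make ATP. Most subunits are encoded in the nucleus, and many of their genes are known targets of the transcription factors NRF-1 and GABP (also named NRF-2). The mitochondrially encoded subunits were not analysed here.

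Levels are FPKM, which are scaled by transcript length and can be compared between genes. Read numbers behind each library were not given with the tables, and the summed FPKM ranged from 691130 to 753054 in parental cells and from 600578 to 910348 in the shRNA cells. The 10 highest genes took 25.03% and 26.1% of the sum in untreated parental libraries and 28.7% and 34.1% at 24 h, and in control cells 14.5% and 16.9% against 29.9% and 40.4%. Lmnb1, which the KD targets, stood at 29.2 and 36.5 FPKM in untreated control cells and at 9.01 and 9.27 in untreated KD cells, and it was lower in KD than in control cells at every time point, with log2 differences of -1.73, -1.90 and -1.50 at 0, 8 and 24 h (SE 0.18). Lmnb1 was itself lower at 24 h than at 0 h in parental cells (-0.95, SE 0.05). Of the epithelial markers, 5 to 7 of 9 reached 1 FPKM in a group and their sum lay between 4332 and 7065 FPKM, whereas Cldn3 and Cldn7 were at or near 0. Epcam was at 0.171 to 1.17 FPKM in parental and 0.202 to 3.15 in shRNA cells. The sum hides changes of single markers from 0 to 24 h in parental cells. Krt19 went from 1005 and 982 to 55.5 and 69.1 FPKM and Cdh1 from 113 and 119 to 39.4 and 41.1, whereas Krt18 went from 1776 and 1720 to 2068 and 2108. Blood (sum at most 2.03 FPKM), endothelial (at most 1.66) and adipocyte (at most 6.05) markers were low. Endothelial sums were 1.08 to 1.66 FPKM in parental and 0.0132 to 0.608 in shRNA cells. Among adipocyte markers Fabp4 was at 4.61 to 5.87 FPKM in parental cells and at most 0.203 in shRNA cells. The source of this RNA in parental cells was not tested. Muscle and heart markers were higher. In parental cells 5 of 6 were present, with sums of 166 to 183 FPKM at 0 h, 238 to 239 at 8 h and 246 to 253 at 24 h. Most of the rise was Tnnt2, at 64.9 and 57.3 FPKM at 0 h and 116 and 115 at 8 h. Tnnt2 also rose in control cells, from 18.4 and 22.6 to 85.9 and 90.1 FPKM at 8 h. Actc1 changed less in parental cells, from 70.3 and 65.6 to 72.4 and 73.9 FPKM at 8 h and 82.1 and 79.4 at 24 h. The muscle and heart markers bear on a few isoforms of complex IV below.

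Promoter sequences from RefSeq (GRCm38.p6, 250 bases before to 50 after a start) were found for 66 of the 84 genes. Those below were picked after the search, because they hold letters searched for and belong to complex II (Sdha, Sdhd), to a gene with one of the largest falls (Ndufa5) or to genes with lamin B1 peaks at every time point (Cox6a1, Atp5h). Each is the stretch just before the start, shortened where a neighbouring gene begins. Capitals mark the NRF-1 core GCGCANGCG on either strand, or in Sdhd the letters CCGGAAG of the ETS family, to which GABP belongs, read on the other strand as CTTCCGG.

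Sdha (chr13:74350241-74350316, minus strand): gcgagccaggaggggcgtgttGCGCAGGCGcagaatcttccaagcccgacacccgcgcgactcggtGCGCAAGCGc
Sdhd (chr9:50603850-50603900, minus strand): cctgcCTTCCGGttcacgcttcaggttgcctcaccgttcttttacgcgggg
Ndufa5 (chr6:24527691-24527790, minus strand): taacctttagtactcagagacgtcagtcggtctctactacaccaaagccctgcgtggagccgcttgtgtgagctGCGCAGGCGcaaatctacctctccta
Cox6a1 (chr5:115348959-115349208, minus strand): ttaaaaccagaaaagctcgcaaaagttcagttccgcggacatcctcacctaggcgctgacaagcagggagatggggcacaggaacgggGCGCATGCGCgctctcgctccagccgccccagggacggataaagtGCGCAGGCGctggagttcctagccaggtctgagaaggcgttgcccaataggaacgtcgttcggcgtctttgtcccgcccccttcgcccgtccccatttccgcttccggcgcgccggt
Atp5h (chr11:115419920-115420093, minus strand): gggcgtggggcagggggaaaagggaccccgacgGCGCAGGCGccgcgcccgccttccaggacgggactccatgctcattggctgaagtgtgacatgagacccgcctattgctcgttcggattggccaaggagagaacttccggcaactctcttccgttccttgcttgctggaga

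In Cox6a1 the longer run of capitals is a core on each strand, overlapping. The NRF-1 core was in 20 of the 66 promoters (30.3%, 95% Wilson interval 20.6% to 42.2%), beside 16.0% of 8446 genes tested for RNA in parental cells and 7.03% of all 27025 genes with a promoter. The YY1 letters AAGATGGCG were in 7 promoters (10.6%), beside 3.87% and 1.64%. The ETS letters were in 16 (24.2%), beside 21.3% and 9.93%. The Sp1 letters GGGCGG went the other way, in 26 promoters (39.4%) beside 70.5% of tested genes and 38.2% of all. The letters TGACGTCA (CRE) were in 4 promoters (6.06%, beside 3.72% and 2.03%), TATAAA in 7 (10.6%, beside 8.69% and 15.7%) and CCAAT in 29 (43.9%, beside 43.7% and 41.1%). A match is a run of letters in this window, not a measured binding site.

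The first question was what TGF-β did to these genes in parental cells. They were lower together: at 8 h 45 of the 79 tested genes fell, 1 rose and 33 did not pass the test, and at 24 h 63 fell, 4 rose and 12 did not pass. A gene was tested when it reached 1 FPKM in at least 2 libraries, and it was called at an adjusted p under 0.05 in limma on log2(FPKM + 1). The median log2 difference was -0.16 at 8 h and -0.29 at 24 h, beside -0.05 and -0.02 for all 11309 genes tested. Of all genes tested, 32.1% fell and 22.4% rose at 8 h, and 37.1% fell and 33.4% rose at 24 h.

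The summed level of these genes was 20180 and 18791 FPKM in the untreated libraries, 17678 and 17484 at 8 h, and 15767 and 15812 at 24 h. The libraries of different time points did not overlap, and the mean at 24 h was 81.0% of the untreated mean. From 8 to 24 h 35 genes fell and 6 rose, with a median of -0.13 beside 0.02 for all genes, of which 24% fell and 27.7% rose. Mesenchymal markers moved the opposite way, with sums of 1535 to 1536 FPKM at 0 h, 2206 to 2255 at 8 h and 2386 to 2503 at 24 h, and their part in the fall was not tested. In bulk RNA, fewer cells of a type and less RNA per cell cannot be told apart. The count of falls at 8 h was the less firm of those against untreated cells: with the medians of all libraries set equal, 26 fell and 1 rose, and without the first untreated library 24 fell and 1 rose. From 8 to 24 h the count of 41 calls dropped to 23 without the first and 27 without the second library at 24 h.

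**Figure D1:**
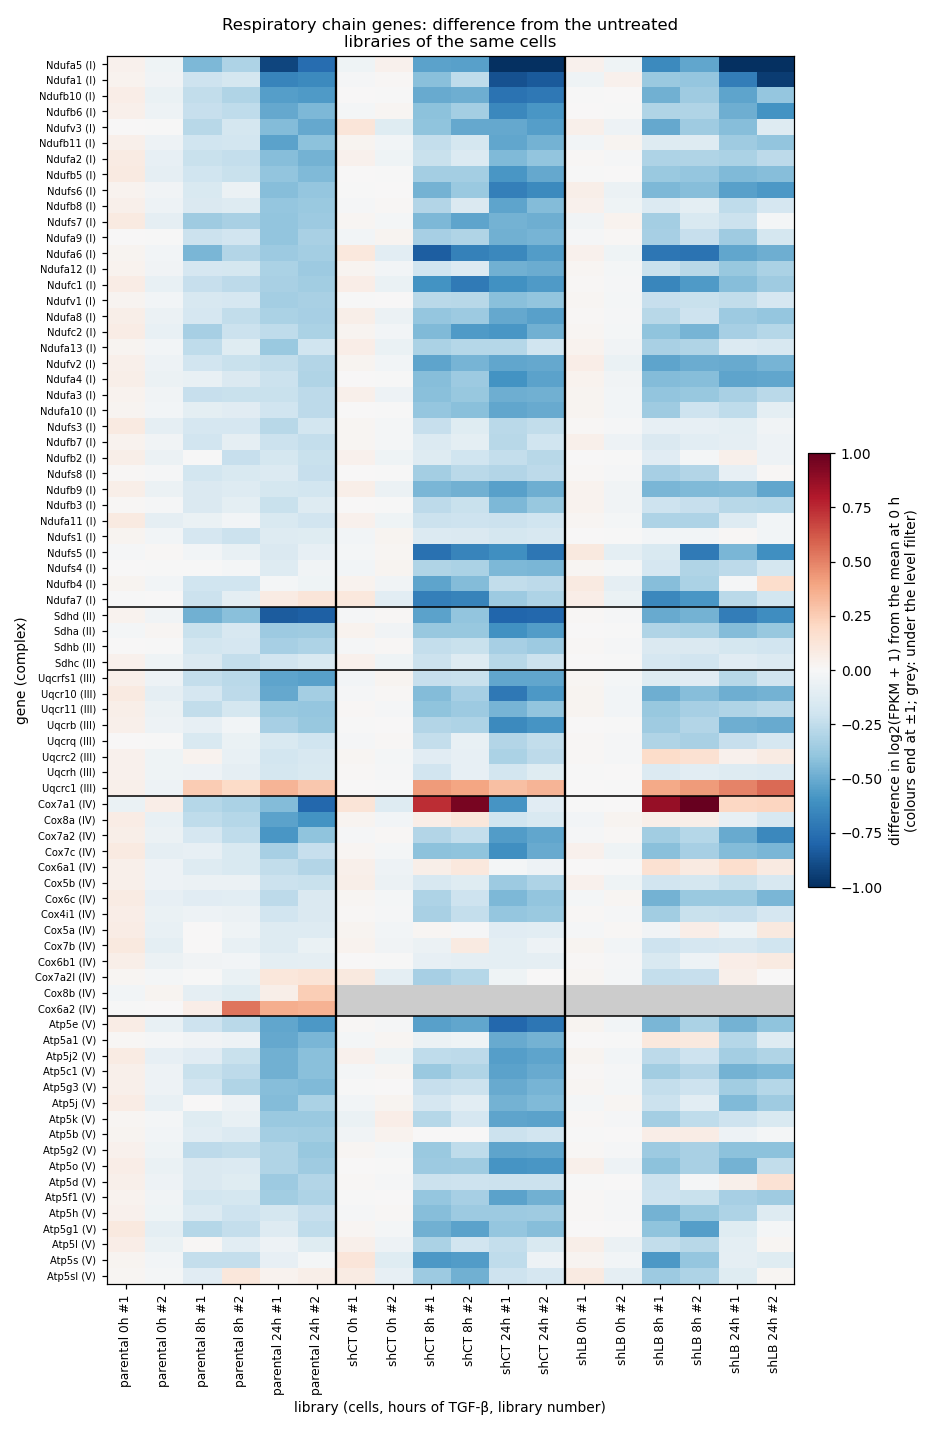
Each row is a respiratory chain gene tested in parental cells (78 of 79 drawn), grouped by complex, and each column is an RNA library. Colour gives the difference in log2(FPKM + 1) from the mean of the untreated libraries of the same cells, blue for lower and red for higher, and grey marks genes under the level filter in the shRNA table. Blue fills most rows at 8 and 24 h in all 3 kinds of cells, and the row of Uqcrc1 is red.

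Complex I held the largest number of falls, and it also had the most tested genes. Of its 36 tested genes 26 (72.2%) fell at 8 h and 31 (86.1%) at 24 h, and 1 rose at 24 h, with medians of -0.19 and -0.28. The share that fell was higher in complex II at both times (100%) and in complex III at 24 h (87.5%). Ndufa5, an accessory subunit, was at 87.7 and 82.2 FPKM untreated, 62.0 and 68.5 at 8 h, and 44.6 and 49.6 at 24 h. No library of a later time point reached an earlier one, and at 24 h the log2 difference was -0.84 (SE 0.07, adjusted p = 3.98e-05), the largest fall among the 79 genes. Ndufa1, another accessory subunit, whose gene is X-linked, went from 122 and 116 to 103 and 105 and then to 75.02 and 76.1 FPKM, a log2 difference of -0.65 at 24 h (SE 0.04, adjusted p = 9.19e-06). Ndufa6 fell early and stayed near that level, at 203 and 196, then 145 and 162, then 155 and 157 FPKM, with a log2 difference of -0.38 at 8 h (SE 0.06, adjusted p = 0.00146).

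Ndufa7 was called between 8 and 24 h, at 128 and 139 against 157 and 161 FPKM (log2 difference 0.26, SE 0.05, adjusted p = 0.00374), after untreated values of 148 and 149.

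All 4 genes of complex II, succinate dehydrogenase, fell at 8 h and at 24 h. Sdhd, which encodes a membrane anchor, moved most, from 208 and 198 to 145 and 152 and then to 114 and 115 FPKM. The 3 time points did not overlap, and the log2 difference was -0.45 at 8 h (SE 0.04, adjusted p = 0.000201) and -0.82 at 24 h (SE 0.04, adjusted p = 4.62e-06). The other membrane anchor, Sdhc, moved least at 24 h, from 128 and 121 to 113 and 106 and then to 109 and 112 FPKM (-0.17 at 24 h, SE 0.05, adjusted p = 0.0148). Sdha, the flavoprotein that oxidises succinate, was at 120 and 123, then 104 and 109, then 94.7 and 95.2 FPKM (-0.36 at 24 h, SE 0.04). Sdhb, the iron-sulphur subunit, was at 103 and 102, then 89.8 and 90.8, then 80.9 and 82.5 FPKM (-0.32 at 24 h, SE 0.03). The subunits of this complex thus stood within a narrow range of levels at 24 h, from 80.9 to 115 FPKM, after 102 to 208 FPKM untreated.

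In complex III 2 of 8 genes fell at 8 h and 7 at 24 h, and the remaining gene, Uqcrc1, rose at both. Uqcrc1 encodes a core protein of the complex. Its values were 148 and 138 FPKM untreated, 170 and 163 at 8 h, and 181 and 172 at 24 h. Untreated libraries were below all treated ones, with log2 differences of 0.22 at 8 h (SE 0.05, adjusted p = 0.00763) and 0.30 at 24 h (SE 0.05, adjusted p = 0.00114). Uqcrfs1, the Rieske iron-sulphur protein of the same complex, went from 149 and 139 to 122 and 119 and then to 99.5 and 98.6 FPKM (-0.53 at 24 h, SE 0.04, adjusted p = 3.70e-05).

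Complex IV had the medians nearest to 0. Of its 14 tested genes 3 fell at 8 h and 8 at 24 h, 2 rose at 24 h, and the medians were -0.08 and -0.19. Cox8a, the most abundant of all these mRNAs in untreated parental cells, went from 1157 and 1044 to 921 and 900 and then to 760 and 727 FPKM (-0.56 at 24 h, SE 0.06, adjusted p = 0.000122). Cox7a2l, which is known as a factor for supercomplexes of the chain, was at 182 and 177, then 179 and 172, then 194 and 197 FPKM (0.12 at 24 h, SE 0.04, adjusted p = 0.0263). Cox5a was called in none of the comparisons of treated with untreated cells, and its parental values were 363 and 328, then 347 and 335, then 316 and 315 FPKM.

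In complex V 10 of 17 genes fell at 8 h and 13 at 24 h, and none rose in limma. Atp5a1, the alpha subunit of the catalytic head, was at 459 and 454 FPKM untreated and 445 and 441 at 8 h, and fell to 320 and 333 at 24 h. The fall lay between 8 and 24 h, where the log2 difference was -0.44 (SE 0.04, adjusted p = 0.000138). Atp5e, the epsilon subunit of the central stalk, had the largest fall of the complex at 24 h, from 422 and 379 to 279 and 268 FPKM (-0.55, SE 0.06, adjusted p = 0.000135).

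**Figure D2:**
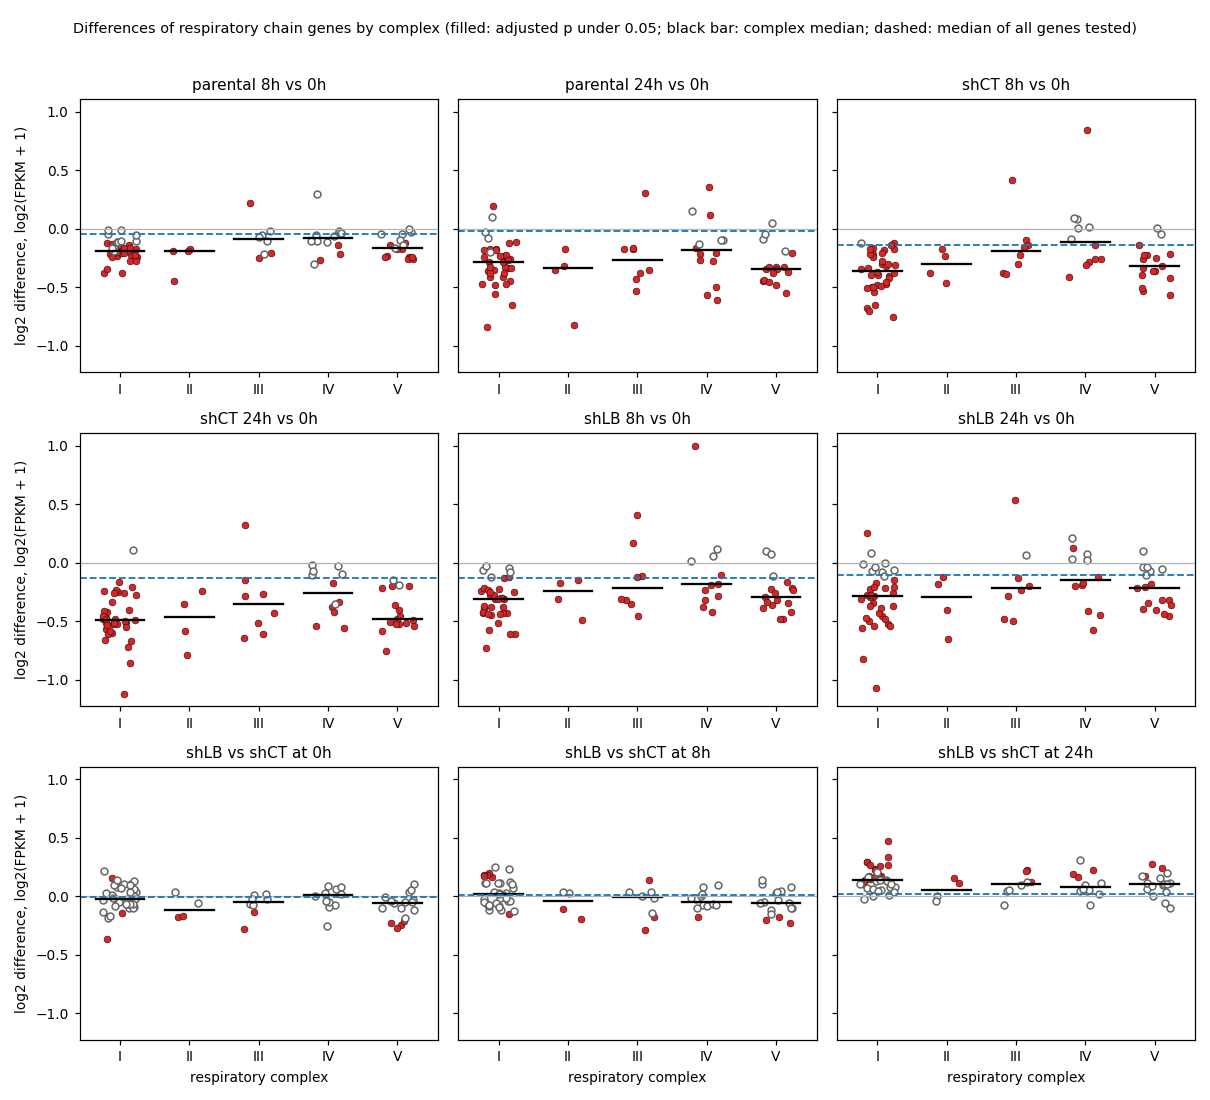
Each panel is a comparison and each point a gene, placed by its complex (x axis) and its difference in log2(FPKM + 1) (y axis). Filled points passed an adjusted p of 0.05, the black bar is the median of the complex and the dashed line the median of all genes tested. In the 6 panels of treated against untreated cells the complex medians lie below the dashed line, except that of complex IV in control cells at 8 h, and in KD against control cells at 24 h all 5 lie above it.

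Several complex IV subunits exist as a form used in most tissues and a form known from muscle, lung, testis or other tissues, and the cells used the former. Cox4i1 was at 592 to 705 FPKM in parental and 473 to 636 in shRNA cells, whereas Cox4i2 did not exceed 0.115 FPKM in any library. Cox6b1 was at 603 to 674 and 580 to 687 FPKM, with Cox6b2 at no more than 0.346. Cox7b2 and Cox8c were listed at 0 in every library, and Ndufa4l2 did not exceed 0.157 FPKM beside 478 to 799 for Ndufa4. These 5 genes were the only ones of the 84 that failed the level filter in parental cells.

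The 3 forms known from heart and skeletal muscle behaved otherwise. Cox6a2 was at 6.10 and 6.13 FPKM untreated, 6.45 and 9.30 at 8 h, and 8.17 and 8.07 at 24 h in parental cells, and was no higher than 0.0390 FPKM in the 12 shRNA libraries. Cox8b was at 5.77 to 7.70 FPKM in parental cells and listed at 0 in all shRNA libraries. The rise of Cox6a2 at 24 h (0.36, SE 0.13, adjusted p = 0.0473) is 1 of the 4 rises counted above, and that of Cox8b from 8 to 24 h (0.25, SE 0.07, adjusted p = 0.0235) is 1 of the 6.

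The same parental libraries held the defining genes of heart muscle, with Myh6 at 28.4 to 36.3, Actc1 at 65.6 to 82.1, Ckm at 9.18 to 11.3 and Myh7 at 4.96 to 6.49 FPKM. In the shRNA libraries none of these exceeded 0.0171 FPKM, and only Tnnt2, at 18.4 to 90.1 FPKM, was present. Tnnt3 was at or near 0 in both. What part this RNA has in the levels of Cox6a2 and Cox8b was not tested.

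Cox7a1, the third of these forms, was present in both sets of cells. It fell in parental cells, from 15.8 and 17.5 to 13.4 and 13.2 and then to 12.004 and 9.19 FPKM (-0.61 at 24 h, SE 0.11, adjusted p = 0.00203). In control cells it was at 5.44 and 4.36, then 8.79 and 10.4, then 2.90 and 4.42 FPKM, and the libraries at 8 h were above all others (0.84, SE 0.16, adjusted p = 0.00149). In KD cells it was at 3.92 and 3.93, then 8.01 and 9.75, then 4.68 and 4.71 FPKM, with the same rise at 8 h (1.00, SE 0.16, adjusted p = 0.000481). The more abundant forms Cox7a2 and Cox6a1 were at 171 to 268 and 424 to 539 FPKM in parental cells and fell at 24 h by 0.49 (SE 0.07) and 0.27 (SE 0.05) on the log2 scale.

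The c subunit of the ATP synthase ring is made from 3 genes that encode the same mature protein. In parental cells Atp5g3 made up 42.2% to 46.5% of their summed FPKM, Atp5g2 40.7% to 42.4% and Atp5g1 12.9% to 15.4%. The ranges of Atp5g2 and Atp5g3 overlapped, and Atp5g1 was below both in every library. In shRNA cells the shares were 40.4% to 46.5%, 39.3% to 44.2% and 12.8% to 18.4%.

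**Figure D3:**
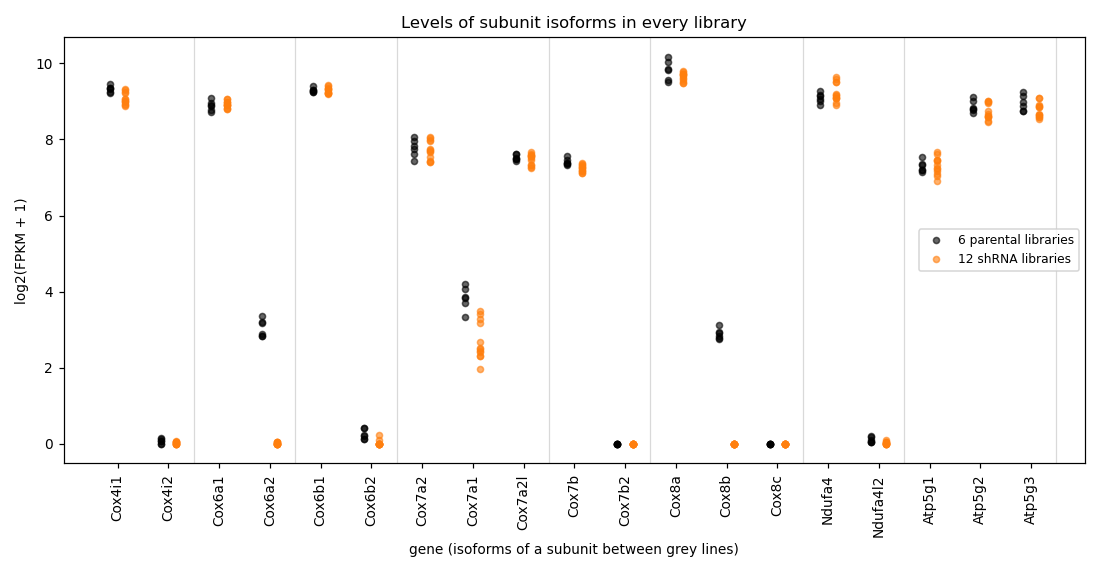
Levels of subunit isoforms, as log2(FPKM + 1) on the y axis, in the 6 parental (black) and 12 shRNA libraries (orange), each point 1 library. Cox6a2 and Cox8b are above 0 in parental libraries only, and Cox4i2, Cox6b2, Cox7b2, Cox8c and Ndufa4l2 lie at or near 0 in all.

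The control and KD cells were used to ask whether the response to TGF-β held in cells infected with shRNA and whether it depended on lamin B1. In control cells 67 of 77 tested genes fell and 2 rose at 8 h, and 67 fell and 1 rose at 24 h. In KD cells 63 fell and 3 rose at 8 h, and 55 fell and 3 rose at 24 h. Of all 11450 genes tested, 44.9% fell and 19.4% rose in control cells at 8 h and 45.1% fell and 25.5% rose at 24 h. In KD cells 44.8% fell and 23% rose at 8 h, and 43.3% fell and 28.6% rose at 24 h.

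The median of all genes was itself below 0 in these comparisons, at -0.14 and -0.13 in control cells and -0.13 and -0.10 in KD cells at 8 and 24 h. Relative to it, the median of the respiratory chain genes was lower by 0.16 and 0.32 in control cells and by 0.17 and 0.13 in KD cells, from values of -0.30, -0.46, -0.30 and -0.23. With the medians of the libraries set equal, 45 and 59 genes fell in control cells and 48 and 37 in KD cells. Summed FPKM was 19297 and 18960 in untreated control cells, 15935 and 16460 at 8 h and 14451 and 14799 at 24 h. In KD cells it was 18831 and 18435, then 15617 and 16019, then 15622 and 16000, so that the treated libraries of the time points overlapped. Mesenchymal marker sums were 1335 to 1520, 3346 to 3400 and 4032 to 4100 FPKM in control and 1319 to 1329, 3629 to 3744 and 3706 to 3814 FPKM in KD cells, and their part was not tested.

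Parental and shRNA cells share no library. Of 77 genes tested in both tables, 74 had the same sign in parental and control cells at 24 h, where 61 fell in both, 1 rose in both and none was called in opposite directions by limma. At 8 h 70 had the same sign and 42 fell in both. The share of all genes that fell in both was not counted at either time. The signs were the same for 83.3% of all 10843 genes tested in both at 24 h and for 80.7% at 8 h. Across genes, which are not independent replicates, Pearson's r of the log2 differences was 0.76 at 24 h and 0.37 at 8 h (n = 77), beside 0.89 and 0.77 over all those genes.

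Over the 6 comparisons of treated with untreated cells, 32 of the 77 genes were called lower in all 6 and 22 in 5, whereas 5 of all 79 genes were called lower in none of those they were tested in (Cox5a, Cox6a2, Cox8b and Uqcrc1 among them). In each single comparison 32.1% to 45.1% of all genes tested fell. How many of all genes fell in all 6 was not counted, so no background stands beside these counts. Ndufa5 was again among the largest falls, from 85.9 and 90.9 to 60.8 and 60.2 and then to 39.7 and 40.6 FPKM in control cells (-1.12 at 24 h, SE 0.05, adjusted p = 1.60e-07). In KD cells it was at 91.2 and 86.1, then 56.6 and 61.5, then 42.5 and 40.9 FPKM (-1.07 at 24 h, SE 0.05, adjusted p = 1.76e-07). Ndufa1 and Sdhd followed it at 24 h in both, with log2 differences of -0.86 (SE 0.08) and -0.79 (SE 0.05) in control cells and -0.82 (SE 0.08) and -0.66 (SE 0.05) in KD cells.

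Some complex I genes dipped at 8 h. Ndufa6 was at 213 and 183 FPKM in untreated control cells, 111 and 123 at 8 h, and 126 and 134 at 24 h (-0.75 at 8 h, SE 0.07, adjusted p = 3.33e-05). Ndufa7 was at 275 and 238, then 159 and 160, then 199 and 206 FPKM (-0.68 at 8 h, SE 0.07, adjusted p = 5.36e-05). Both dips were present in KD cells, at -0.73 (SE 0.07) and -0.61 (SE 0.07), where Ndufc1 fell by 0.61 on the log2 scale too (SE 0.06, adjusted p = 2.05e-05). Ndufs5 fell in control cells at 8 h (-0.71, SE 0.15, adjusted p = 0.00332), from 85.8 and 87.8 to 51.2 and 54.4 FPKM, whereas in KD cells the libraries at 8 h lay far apart, at 76.5 and 51.8 FPKM (-0.43, SE 0.15, adjusted p = 0.0324).

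Uqcrc1 was the only gene of the set called higher in all 6 comparisons. It was at 126 and 125 FPKM in untreated control cells, 170 and 166 at 8 h and 156 and 159 at 24 h, with log2 differences of 0.41 and 0.32 (SE 0.04). In KD cells it was at 103 and 103, then 135 and 139, then 146 and 154 FPKM, with log2 differences of 0.40 and 0.53 (SE 0.04). Cox6a1 rose in KD cells at 24 h, from 480 and 477 to 537 and 509 FPKM (0.13, SE 0.05, adjusted p = 0.0380).

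**Figure D4:**
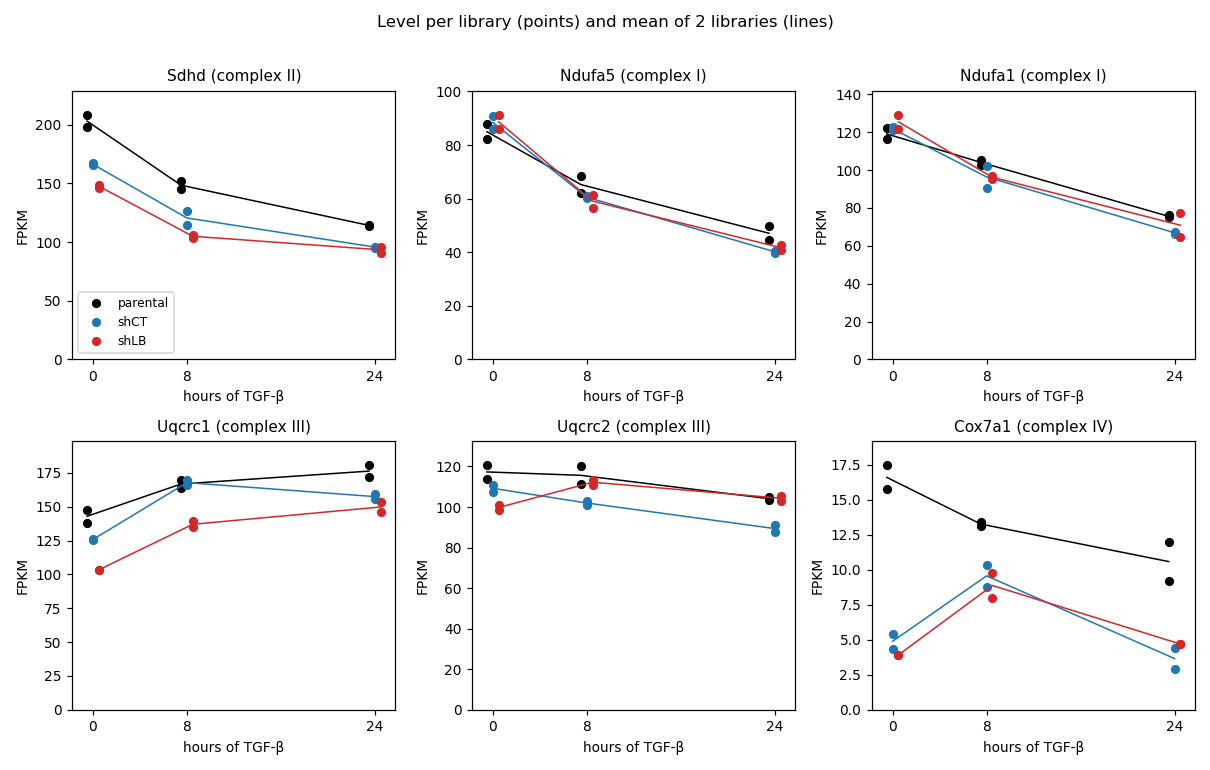
FPKM (y axis) against hours of TGF-β (x axis) for 6 genes, with each library as a point and lines through the means of 2 libraries, for parental (black), control (blue) and KD cells (red). Sdhd, Ndufa5 and Ndufa1 go down in all 3 kinds of cells, Uqcrc1 goes up in all 3 with KD values below control values, and Uqcrc2 lies below control values in KD cells at 0 h and above them at 8 and 24 h.

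Between KD and control cells the genes differed little before TGF-β. At 0 h 1 of 77 genes was higher in KD cells than in control and 10 were lower, beside 10.6% higher and 9.09% lower of all 11450 genes, and the median log2 difference was -0.03. At 8 h 6 were higher and 9 lower, beside 19.3% and 16.5% of all genes, with a median of -0.01. At 24 h 29 were higher and none lower in limma, beside 16.8% and 11.5% of all genes, and the median was 0.11 beside 0.02 for all genes. The KD libraries at 24 h had the lowest correlation between libraries of a group (Pearson's r across genes 0.960, beside 0.971 to 0.990 in the other groups), with Fn1 at 415 and 942 FPKM and Krt19 at 22.1 and 52.6. Cdh1, the epithelial cadherin, was at 46.6 and 60.1 FPKM in KD and 26.8 and 27.6 in control cells at 24 h. It was also higher in KD cells at 8 h, at 83.1 and 84.1 against 51.6 and 52.1 FPKM. Summed epithelial markers at 24 h were at 6170 to 7065 FPKM in KD and 5837 to 6080 in control cells. Krt7 went the other way, at 36.6 and 56.3 against 59.2 and 57.0, and Cldn4 overlapped, at 4.76 and 9.78 against 9.49 and 9.32. The part of these markers and that of the spread between the KD libraries were not tested.

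The lower genes at 0 h included Ndufs7, a core subunit of complex I, at 82.0 and 80.0 FPKM in control and 61.4 and 64.4 in KD cells (-0.36, SE 0.08, adjusted p = 0.0136). Uqcrc1 was lower in KD cells at 0 h (-0.28, SE 0.04, adjusted p = 0.00167) and at 8 h (-0.29, SE 0.04, adjusted p = 0.000666), and its values given above did not overlap at either time. Atp5b, the beta subunit that carries the catalytic sites, was at 908 and 954 FPKM in control and 773 and 775 in KD cells at 0 h (-0.27, SE 0.04, adjusted p = 0.00221). At 8 h it was at 933 and 934 against 811 and 816 FPKM (-0.20, SE 0.04, adjusted p = 0.00401), a direction that turned to 0.034 with quantile normalization. Atp5g3 was lower in KD cells at 8 h, at 396 and 405 against 465 and 472 FPKM (-0.22, SE 0.04, adjusted p = 0.00227). The direction of the counts rests on the scaling: with quantile normalization 6 genes were above and 5 below control at 0 h, and at 8 h 10 were above and 7 below. With only the 2 groups compared in the fit 4 were lower and none higher at 0 h by limma, and 11 were higher and 7 lower at 8 h.

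Ndufb3, an accessory subunit of complex I, was higher in KD cells at all 3 time points, at 134 and 134 against 153 and 146 FPKM at 0 h, 111 and 114 against 129 and 127 at 8 h, and 97.4 and 103 against 123 and 123 at 24 h. The libraries did not overlap at any time, and the log2 differences were 0.16, 0.18 and 0.30 (SE 0.04, adjusted p = 0.0232, 0.00736 and 0.00124). Ndufb2 and Ndufb11, accessory subunits of the same arm, were higher at 8 h by 0.18 (SE 0.05) and 0.20 (SE 0.04). Ndufv3 had the largest difference at 24 h, at 74.97 and 73.2 against 92.9 and 114 FPKM (0.47, SE 0.11, adjusted p = 0.0149), and Ndufb2 was next at 77.0 and 74.96 against 99.4 and 92.9 FPKM (0.34, SE 0.05, adjusted p = 0.00262).

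The 29 higher genes at 24 h were spread unevenly: 18 of 36 from complex I, 2 of 4 from complex II, 3 of 8 from complex III, 3 of 12 from complex IV and 3 of 17 from complex V. The shares were 50%, 50%, 37.5%, 25% and 17.6% in that order, beside 16.8% of all genes. That of complex V was thus near the share of all genes. With quantile normalization 14 genes were higher and 2 lower, with equal medians 19 were higher, and with only the 2 groups at 24 h in the fit 4 were higher. Without the first or the second control library at 24 h 7 and 10 genes were higher, and without the second KD library at 24 h 16.

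The difference in response between KD and control cells was tested directly and gave few calls. At 8 h the response of 1 gene, Uqcrc2, differed between KD and control cells, beside 2.45% of all genes with a more positive and 1.61% with a more negative response in KD cells. At 24 h 5 of 77 differed, all with a more positive response in KD cells, beside 2.73% and 1.98%, and the median of the 77 differences was 0.15 beside 0.03 for all genes. The size of that median rests on the scaling: it was 0.03 beside -0.004 with quantile normalization and 0.13 beside 0.006 with equal medians. Uqcrc2, a core protein of complex III like Uqcrc1, was at 111 and 108, then 101 and 103, then 87.8 and 91.0 FPKM in control cells and at 101 and 98.7, then 113 and 111, then 103 and 106 FPKM in KD cells. It fell in control and rose in KD cells at 8 h, and the responses differed by 0.27 (SE 0.05, adjusted p = 0.0315) at 8 h and 0.35 (SE 0.05, adjusted p = 0.0100) at 24 h.

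The other genes at 24 h were Atp5k (0.35, SE 0.08, adjusted p = 0.0485), Atp5g1 (0.34, SE 0.08, adjusted p = 0.0484), Atp5e (0.32, SE 0.07, adjusted p = 0.0447) and Uqcrfs1 (0.28, SE 0.05, adjusted p = 0.0283). Atp5k went from 598 and 654 to 434 and 432 FPKM at 24 h in control cells, and from 586 and 578 to 504 and 524 FPKM in KD cells. These calls depended on single libraries: none was left without either untreated KD library or without the first control library at 24 h, and 26 were called without the first KD library at 24 h.

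Most lists of related genes outside the set also held more falls than rises with TGF-β. The shares below stand beside 37.1% of all genes lower and 33.4% higher in parental cells at 24 h. In parental cells at 24 h 58 of 76 mitochondrial ribosomal protein genes (76.3%) fell and 2 rose (median -0.27), led by Mrpl50 (-0.92, SE 0.05) and Mrpl18 (-0.76, SE 0.04). Of 40 tested assembly factors of the chain 24 (60.0%) fell and 4 rose (median -0.21), led by Cox20 (-0.72, SE 0.05) and Coa3 (-0.65, SE 0.09), both of which serve complex IV. Of 16 enzymes of pyruvate oxidation and the citric acid cycle 11 (68.8%) fell and none rose in limma (median -0.17), led by Suclg2 (-0.65, SE 0.05) and Fh1 (-0.61, SE 0.04).

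Of 12 carriers and channels 10 (83.3%) fell and 1 rose (median -0.34), led by the dicarboxylate carrier Slc25a10 (-1.51, SE 0.08) and the ADP/ATP carrier Slc25a5 (-0.71, SE 0.04). Among 6 subunits whose names lie outside the rule 4 (66.7%) fell, led by Atpif1, the inhibitor of the ATP synthase (-0.58, SE 0.04), and Cycs, cytochrome c (-0.47, SE 0.05). Of 16 regulators of mitochondrial biogenesis 7 (43.8%) fell and 2 rose (median -0.14), a share of falls near that of all genes. The largest falls among them were Tfb1m (-0.71, SE 0.08), a methyltransferase of mitochondrial ribosomal RNA, and Tfam (-0.63, SE 0.05), which acts in transcription of mitochondrial DNA. In control cells at 24 h, where 45.1% of all genes fell, the falls were 71 of 77 ribosomal proteins, 31 of 44 assembly factors, 15 of 16 cycle enzymes, 10 of 12 carriers, 6 of 6 other subunits and 10 of 17 regulators.

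In KD against control cells at 24 h 13 of 77 ribosomal protein genes were higher (16.9%, the share of all genes being 16.8%) and 2 lower (median 0.09). Of 12 carriers and channels 5 (41.7%) were higher and 2 (16.7%) lower (median 0.07). Of 16 cycle enzymes 2 (12.5%) were higher and 1 lower, and of 6 other subunits 1 was higher and 1 lower. Of 44 assembly factors 10 (22.7%) were higher (median 0.11), and of 17 regulators 1 was higher and 6 (35.3%, beside 11.5% of all genes) lower (median -0.09). Cyc1, cytochrome c1 of complex III, was lower in KD cells at 0, 8 and 24 h, by -0.56, -0.61 and -0.36 (SE 0.04).

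The last question was whether the promoters of these genes carried lamin B1 and open chromatin. Of 84 genes 83 were placed on mm9 by symbol, and a promoter was the 500 bp on either side of an annotated start of a coding transcript. Lamin B1 peaks lay at 18 of the 83 promoters at 0 h (21.7%). At 8 h there were 31 (37.3%) and at 24 h 22 (26.5%), with 95% Wilson intervals of 14.2% to 31.7%, 27.7% to 48.1% and 18.2% to 36.9%. All placed genes of the parental table gave 16.6%, 32.8% and 25.8%. The respiratory chain genes are highly expressed, however, and among genes at 100 FPKM or more the shares were 23.3%, 41.8% and 32.0% for them and 33.7%, 55.0% and 39.6% for all genes. The peak lists themselves differed, with 4645, 10484 and 7083 lamin B1 peaks at 0, 8 and 24 h, and the depth behind them is unknown. When each list was cut to equal length 14.5% had a peak at 8 h and 12.05% at 24 h, so that the higher share at 8 h turned into a lower one than the 21.7% at 0 h.

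Lamin B1 peaks were at the promoter at all 3 times in 11 genes, Atp5f1, Atp5g3, Atp5h, Cox4i1, Cox5a, Cox6a1, Cox6c, Ndufa13, Ndufa6, Ndufv2 and Uqcrfs1 (14.1% of the 78 placed and tested for RNA, beside 19.0% of 11055 placed genes tested). The highest score at 0 h was at Ndufa13 (chr8:72425597-72427439 on mm9, 1843 bp, score 186), with scores of 94.6 at 8 h and 54.7 at 24 h. At Cox5a (chr9:57368717-57370048, 1332 bp) the scores were 109, 116 and 150, and at Atp5h (chr11:115280966-115282342, 1377 bp) 92.1, 142 and 104. A neighbouring gene, Kctd2, begins just before the start of Atp5h, so the Atp5h peaks cannot be assigned to either gene. Cox6a1 (chr5:115798178-115799340, 1163 bp) had scores of 53.9, 67.1 and 56.3, near the lowest score in the lists, 50.

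Genes with a peak at 0 h alone included Atp5j2 (chr5:145951617-145952751, score 67.7) and Ndufb10 (chr17:24860652-24861627, score 60.0). Uqcrc1 had peaks at 0 and 8 h, and Sdhd at 8 h (chr9:50411790-50412696, score 101) and 24 h (score 58.7). The start of Sdhd lies head to head with that of Timm8b, so this peak cannot be assigned to either gene. No peak lay at the promoters of Sdha, Sdhb and Sdhc. By complex, peaks at 8 h were at 11 of 17 promoters of complex V, 10 of 36 of complex I, 1 of 4 of complex II, 3 of 8 of complex III and 6 of 18 of complex IV. Beside these stand 32.8% of all placed genes and 55.0% of those at 100 FPKM or more at 8 h. No lamin B1 peak lay at any time at 39 of the 78 (50%, beside 39.7% of all placed genes tested), those of Ndufa5 and Ndufa1 among them.

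ATAC peaks lay at 46 promoters at 0 h (55.4%), 35 at 8 h (42.2%) and 72 at 24 h (86.7%), beside 32.4%, 26.5% and 49.6% of all placed genes. Among genes at 100 FPKM or more the shares were 63.3%, 52.7% and 98.0%, beside 68.7%, 53.7% and 94.2% of all genes of that level. The lists held 9782, 10340 and 33811 peaks, and with lists of equal length 47.0% of promoters had a peak at 24 h, below the 55.4% at 0 h. Peaks were at all 3 times at 28 promoters, Uqcrc1, Sdha, Sdhc and Sdhd included, which is 35.9% of the 78 tested beside 42.5% of all placed genes tested. No ATAC peak lay at any time at 11 of the 83, of which 6 were among the tested (7.69%, beside 11.6% of all). Of these 11, Cox4i2, Cox6a2, Cox6b2, Cox7b2, Cox8b, Cox8c and Ndufa4l2 are the isoforms that were near 0 in the shRNA cells, and Cox7b, Ndufa1, Ndufc2 and Ndufs4 were expressed. Cox6a2 and Cox8b thus had no ATAC peak in the parental cells whose RNA tables list them at 5.77 to 9.30 FPKM. Both kinds of peak were at 11 promoters at 0 h, 22 at 8 h and 21 at 24 h, and the share of all genes with both was not counted.

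**Figure D5:**
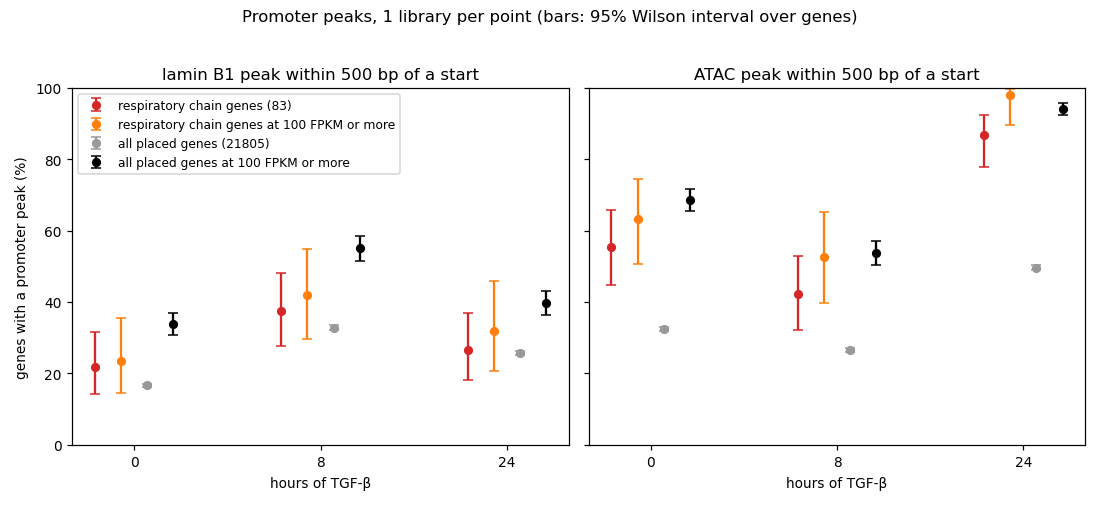
Share of genes with a lamin B1 peak (left) or an ATAC peak (right) within 500 bp of a start, in percent, against hours of TGF-β, with 95% Wilson intervals over genes. Red and orange are the 83 placed respiratory chain genes and those at 100 FPKM or more, and grey and black are all placed genes and those at 100 FPKM or more. The lamin B1 shares of the highly expressed respiratory chain genes lie below those of all genes of that level at the 3 time points, with intervals that overlap at each.

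The genes were also split by lamin B1 at the promoter. In parental cells at 24 h the median log2 difference was -0.29 for 39 tested genes with no peak, -0.33 for 28 with a peak at 1 or 2 times and -0.27 for 11 with a peak at 3 times. In KD against control cells at 24 h the medians were 0.14, 0.10 and 0.11 for 37, 28 and 11 genes, and 14, 12 and 3 of them were higher. These are descriptions, and the difference between the classes was not tested.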

How the data were processed

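RNA-seq of 18 libraries and peak lists of 3 lamin B1 ChIP-seq and 3 ATAC-seq libraries were used, and Hi-C was not analysed here. The authors deposited FPKM values per gene and library, and their processing notes name Bowtie, TopHat, Cufflinks and the build mm9, with no versions. The tables have no header. Columns were assigned by the order that the table names list, and parental columns carry no replicate number. Depth and use of strand in the FPKM values are not given in the sources used here, so genes that share reads with a pseudogene, a paralogue or an overlapping neighbour are uncertain. Per the study's methods the 2 libraries of a group are biological replicates. The p-values rest on the spread between libraries within groups, pooled over all groups of a table and moderated across genes. The authors' peak lists hold positions and a MACS score, with 2 ChIPs mixed into each lamin B1 library.

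The genes and lists were chosen with earlier results of these data known. Values were analysed as log2(FPKM + 1). Genes that reached 1 FPKM in at least 2 of a table's libraries entered limma 3.58.1 in R 4.3.3 (1 fit per table, eBayes with a trend), with Benjamini-Hochberg adjustment over all genes tested, and called at an adjusted p under 0.05. The tests were tried on simulated data. The 12 comparisons were 8 h and 24 h against 0 h in each kind of cells, 24 h against 8 h in parental cells, KD against control at each time, and the difference between their responses at 8 h and 24 h. Named genes were, per comparison, the 3 largest rises and the 3 largest falls among called genes whose libraries did not overlap and whose higher mean was at least 5 FPKM (every such gene for the differences in response), the isoform sets, the Sdh genes, Lmnb1 and genes with lamin B1 peaks at all 3 times or at 0 h alone. Values of 1 gene are not reported here, and counts over genes include it. Others named, such as Cox5a, Atp5e and Uqcrfs1 in parental cells, were chosen after their values were seen. Positions on mm9 came from GENCODE M1, matched by symbol in Python 3.11.15, and Ndufb8 was ambiguous. Where 2 genes start within 1000 bp on opposite strands, a peak cannot be assigned to either of them. Promoter letters come from RefSeq GRCm38.p6, which was not joined to mm9 positions. Wilson intervals cover counting of genes only. Alternatives were an added constant of 0.1, no level filter, quantile normalization, equal medians, a fit restricted to the 2 groups compared, a replicate block, leaving out each library, and for peaks a wider window, overlap with the start itself, higher scores, equal list lengths and, added after seeing the data, the 5′ end of the gene record as start.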

Additional observations from a re-analysis of the deposited data

Results flagged for a closer look

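The response to TGF-β differed between lamin B1 KD and control cells in a test of the difference itself (limma, adjusted over 11450 genes) for 1 respiratory chain gene at 8 h and 5 at 24 h. Uqcrc2 differed by 0.27 on the log2 scale (SE 0.05, adjusted p = 0.0315) at 8 h and by 0.35 (SE 0.05, adjusted p = 0.0100) at 24 h. At 24 h Atp5k differed by 0.35 (SE 0.08, adjusted p = 0.0485), Atp5g1 by 0.34 (SE 0.08, adjusted p = 0.0484), Atp5e by 0.32 (SE 0.07, adjusted p = 0.0447) and Uqcrfs1 by 0.28 (SE 0.05, adjusted p = 0.0283). In each the KD response was the more positive. With quantile normalization or with equal medians 1 gene was called at 24 h in each.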

How the results depend on the processing

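Of the counts of genes called and shares of promoters with a peak, 76 values under alternatives other than leaving out a library stayed within 1.5 times or the interval of the reported one, and 21 did not. In parental cells 19 genes were called at 8 h without the level filter and 27 with equal medians, and 22 from 8 to 24 h without the filter. Between KD and control cells with only the 2 groups in the fit 4 were called at 0 h and 4 at 24 h, and at 24 h 16 were called with quantile normalization and 19 with equal medians. For the difference in response 2 were called at 8 h with quantile normalization, and at 24 h 3 without the filter, 1 with quantile normalization and 1 with equal medians. Atp5b in KD against control cells at 8 h turned to 0.034 with quantile normalization. The cause of these changes was not tested. Leaving out 1 library gave 25 to 48 calls in parental cells at 8 h, 55 to 69 at 24 h and 23 to 46 from 8 to 24 h. In control cells it gave 55 to 70 at 8 h and 65 to 71 at 24 h, and in KD cells 57 to 68 and 46 to 58. Between KD and control cells it gave 2 to 17 calls at 0 h, 6 to 18 at 8 h and 7 to 35 at 24 h, and for the difference in response 0 to 2 at 8 h and 0 to 26 at 24 h. A lone sample left in a group was then assumed to vary like the other groups. For single named genes 790 of 890 values kept their direction and side of the threshold, 99 lost the call and 1 turned.

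Control and KD libraries share replicate numbers, and the main fit did not pair them. Over 15 pairs of groups the correlation of deviations was -0.135 to 0.368 (median 0.0202), with 2 over 0.1. The highest, 0.368, was that of control with KD cells at 24 h, so same-numbered libraries may be linked in that comparison. The next, 0.184, was that of KD cells at 0 and 24 h. A replicate block gave 3 calls in place of 5 for the difference in response at 24 h, and 66, 68, 67 and 57 for the responses of control and KD cells at 8 and 24 h. No block could be made for parental cells, whose columns carry no number.

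With peaks at or above the median score of their list, 6.02%, 16.9% and 8.43% of promoters had lamin B1 at 0, 8 and 24 h, and 24.1%, 21.7% and 72.3% had ATAC peaks. With lists of equal length lamin B1 lay at 14.5% at 8 h and 12.05% at 24 h, and ATAC peaks at 47.0% at 24 h. Measuring from the 5′ end of the gene record (chosen once the data had been seen) gave 22.9%, 37.3% and 26.5% for lamin B1 and 54.2%, 42.2% and 85.5% for ATAC. Depth is unknown, so small differences between low genes cannot be weighed against counting error.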

Other observations

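The genes were short and often shared their start with a neighbour. In GENCODE M1 the 78 members tested in parental cells and placed on mm9 had a median span of 7503 bp, beside 23207 bp for all 10798 tested genes that could be measured. A start within 1000 bp of a gene on the opposite strand, pointing away, was found for 22 of the 78 (28.2%), beside 12.4% of all. The 66 RefSeq promoters had a median GC content of 57.2%, beside 61.3% for the 8446 tested genes with a promoter and 52.7% for all 27025.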
